A study of Mus musculus with 8 samples.

Results

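Exonic circRNAs are closed RNA rings made when the 5′ end of an exon (the acceptor) is joined to the 3′ end of the same exon or of an exon further downstream (the donor). They were taken as the rows of the deposited circRNA table whose annotation type was annotated exons or one exon, which gave 366 of the 1005 circRNAs listed, 268 of the first type and 98 of the second. The one-exon type was taken as annotated. Some of its rings, as in Malat1, overlap without a shared end, so their ends need not be those of a whole exon. The other rows were annotated as antisense, intronic, exon-intron or intergenic. The names novel_circ_000044 and the like are the table's own identifiers.

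The study sorted B-lineage cells from the bone marrow of wild-type female C57BL/6 mice into 4 stages. The pro-B gate was B220+IgM-CD43+ and the gate for pre-B cells B220+IgM-CD43-. Cells of the immature B stage were taken as B220+IgM+CD43-, and the mature B gate was B220hi IgM+CD43-. The animals were untreated adults. Cells of 3 mice were pooled for each stage and 1 rRNA-depleted library was sequenced from each pool. With 1 library per stage no difference could be set against the spread between replicates, and every test below compares libraries, not stages. Values follow the order of development, with the pro-B library first and the mature B library last.

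The unit of measurement is the back-spliced read, a read that crosses the junction of a ring. The libraries held 1370, 1719, 1751 and 1531 such reads over all circRNAs. The reads carried no molecular identifiers, so all 95% intervals below cover counting error only, and a count of 0 allows up to 3 reads. Of the members' counts above 0, 505 of 635 (79.5%) were even, so reads may not be independent of each other. If they are not, the intervals and P values below are too narrow. In bulk libraries, fewer cells that make a circRNA and fewer copies per cell cannot be told apart.

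Back-splicing uses the same splice sites and the same spliceosome as linear splicing, and is favoured by inverted repeats in the flanking introns and by RNA-binding proteins that bring the ends of the exons together. The rings lack free ends, so exonucleases that degrade linear mRNA do not attack them and they outlast the mRNA of their host gene in many cells. In blood cells, where circRNAs have been counted in many lineages, most of the studied ones are made of annotated exons of protein-coding genes.

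The sequence at which a ring closes is shown for 3 members, chosen after the values were seen, because their acceptors were the only ones that lay in a stretch of genome at hand. The 30 bases before and after each acceptor are read on the plus strand of GRCm38.p6 from RefSeq windows around gene starts, with the AG that ends the intron in capitals. For novel_circ_000070 (Son, a splicing factor) the stretch shown is chr16:91651606-91651665, with the first base of the exon at 91651636. That of novel_circ_000572 (Gramd4, a mitochondrial protein of cell death) is chr15:86091283-86091342, with the first exon base at 86091313. That of novel_circ_000866 (4933439C10Rik, a noncoding RNA) is chr11:59506664-59506723, with the first exon base at 59506694.
Son: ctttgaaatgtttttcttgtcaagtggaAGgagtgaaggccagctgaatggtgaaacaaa
Gramd4: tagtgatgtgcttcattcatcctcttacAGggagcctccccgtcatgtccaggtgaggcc
4933439C10Rik: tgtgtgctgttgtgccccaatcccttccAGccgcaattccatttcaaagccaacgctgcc
The exon part of each ring begins directly after the capitals. The Son ring had 6, 0, 0 and 0 back-spliced reads and a spliced length of 1030 nt. The Gramd4 ring (332 nt) had 6, 2, 0 and 0, and the 4933439C10Rik ring (2753 nt) had 0, 6, 0 and 0. An AG stood before the acceptor in 3 of 3. Since find_circ accepts only junctions flanked by GT and AG, this checks the coordinates and is no finding about the rings. The labels name mm9 as the genome build, whereas these junctions and 360 of 365 members with a RefSeq gene lay where GRCm38 places them, so coordinates are given in GRCm38.

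Exonic circRNAs took the largest share of the reads of each library. They held 681 reads (49.7%, Wilson interval 47.1% to 52.4%) in the pro-B library and 914 (53.2%, 50.8% to 55.5%) in the pre-B library. The immature B library had 912 (52.1%, 49.7% to 54.4%) and the mature B library 777 (50.8%, 48.2% to 53.3%). These intervals overlap, so a difference in the exonic share between the libraries was not detectable at this depth. With 36.4% of the listed circRNAs, exonic ones held 3284 of 6371 reads (51.5%).

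**Figure D1:**
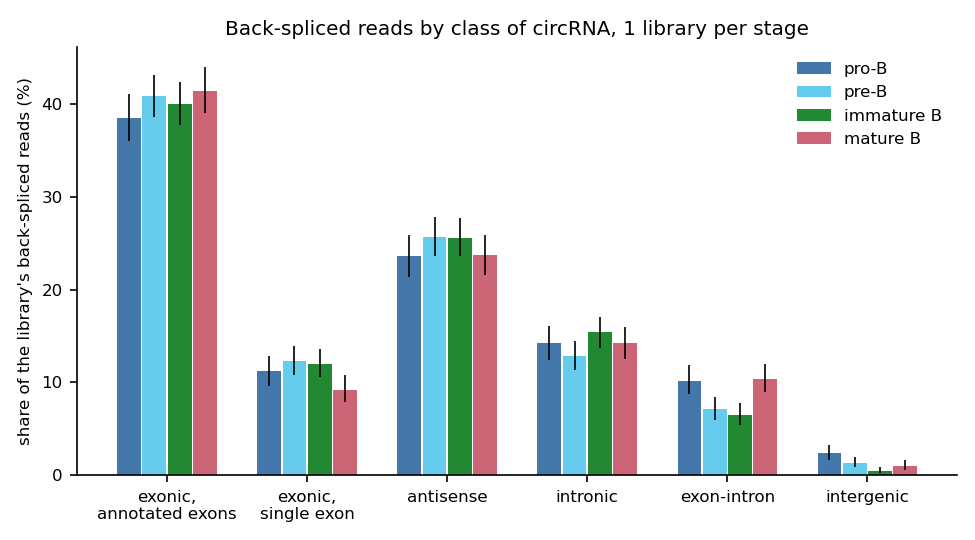
Share of each library's back-spliced reads (%, vertical axis) by class of circRNA, with a bar for each of the 4 libraries and 95% Wilson intervals. Rings of annotated exons hold the tallest bars in every library.

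The comparison class was the antisense circRNAs, the next largest by reads, with 23.6%, 25.7%, 25.6% and 23.7%. The exonic share was higher by 26.1, 27.5, 26.5 and 27.0 points (mean 26.8, SD 0.608, n = 4 libraries). An exact two-sided sign-flip test over the libraries gave p = 0.13, the smallest p that 4 libraries allow, with the difference positive in 4 of 4. The mean was 15.6 points with rings of annotated exons alone, and 76.8 points among circRNAs with 10 or more reads. That filter selects on the reads themselves and was passed by 93 exonic and 13 antisense circRNAs, so its larger difference is no separate support. Within the exonic class, rings of annotated exons had 528, 703, 702 and 636 reads. Rings of a single exon had 153, 211, 210 and 141 reads, or 11.2%, 12.3%, 12% and 9.21% of the library.

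Members were found in several libraries more often than other circRNAs. The libraries detected 141, 171, 173 and 150 members, with 4.83, 5.35, 5.27 and 5.18 reads for each one detected. Of the 366, 159 had reads in 2 or more libraries (43.4%, 38.5% to 48.6%), against 6.06% of antisense, 7.85% of intronic and 5.88% of exon-intron circRNAs. These classes also had fewer reads per circRNA, with a median of 4 against 6 for exonic ones, so circRNAs with like numbers of reads were set side by side. With 4 or 5 reads, 94.2% of exonic, 98.9% of antisense and 96.6% of intronic circRNAs lay in 1 library. Among those with 6 to 9 reads, 49 of 115 exonic (42.6%), 70 of 80 antisense (87.5%) and 34 of 39 intronic circRNAs (87.2%) did. With 10 to 19 reads the shares were 12.1% (8 of 66), 41.7% (5 of 12) and 14.3% (1 of 7), so the classes differed most at 6 to 9 reads. These differences were not tested. No member with 20 or more reads was confined to 1 library, and 21 of those 27 were in all 4.

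The 207 members seen in 1 library were spread over the stages, with 43, 55, 55 and 54. Of the members seen in 3 libraries, 12 had none from pro-B cells, 10 none from pre-B cells, 8 none from immature B cells and 22 none from mature B cells. Among these the mature B library was most often missing, whereas over all 366 members the pro-B library detected the fewest. In every library there were 29 members, of 34 such circRNAs of any class, and these held 999 reads (30.4% of the exonic reads).

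Reads were spread thinly over the class. The quartiles were 4 and 10 reads over the 4 libraries and the maximum was 134. The first member by reads held 4.08% of the exonic reads, the first 5 held 12.9%, the first 10 held 18.4% and the first 20 held 26.6%. No small group of rings therefore made up most of the class total. Each strand held 183 members.

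The 10 members with the most reads are given by the role of their host gene, together with 2 further rings of chromatin genes. Ezh2, the methyltransferase of Polycomb repressive complex 2, gave novel_circ_000044 (chr6:47576536-47577667, minus strand, 253 nt), with 38, 61, 27 and 8 reads. Its share of reads was 1.28-fold higher in the pre-B than in the pro-B library (exact conditional interval 0.84 to 1.97), then 2.3-fold lower in the immature B library (1.44 to 3.77) and a further 2.95-fold lower in the mature B library (1.3 to 7.52). The first of these intervals includes 1 and the later ones do not.

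Arid1a, a DNA-binding subunit of the BAF chromatin remodeller, gave novel_circ_000554 (chr4:133719537-133723051, minus strand, 780 nt), with 19, 19, 16 and 46 reads. Its level was similar in the first 3 libraries and 3.29-fold higher in the mature B than in the immature B library (1.83 to 6.22). Cdyl, a chromodomain corepressor, gave the single-exon ring novel_circ_000514 (667 nt), with 10, 2, 14 and 4 reads. High and low libraries alternated for this ring, which was 6.27-fold lower in the pre-B than in the pro-B library (1.34 to 58.9), 6.87-fold higher in the immature B than in the pre-B library (1.58 to 62.3) and 3.06-fold lower in the mature B library (0.961 to 12.8). Nsd2, a methyltransferase of histone H3, gave novel_circ_000407 with 9, 5, 4 and 10 reads, and all of its intervals between adjacent libraries included 1.

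Among transcription factors, Foxp1, a forkhead protein needed in early B-cell development, gave novel_circ_000524 (chr6:99003200-99016665, minus strand, 1281 nt), with 4, 38, 26 and 30 reads. It was low in the pro-B library alone, and 7.57-fold higher in the pre-B library (2.73 to 29.2). Ikzf1 encodes Ikaros, a zinc-finger protein of lymphoid commitment, and its ring novel_circ_000420 (174 nt) had 3, 5, 14 and 24 reads. Its count went up at each step, but each interval between adjacent libraries included 1, the last being 1.96-fold (0.974 to 4.1). Sp3, a zinc-finger protein of GC boxes, gave the single-exon ring novel_circ_000075 (1360 nt) with 7, 17, 6 and 6 reads. Its highest count was in the pre-B library, where it was 1.94-fold above the pro-B library (0.763 to 5.52) and 2.89-fold above the immature B library (1.09 to 8.94).

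The elongation factors Aff3 and Aff1, both of the AF4 family, gave rings whose highest count was also in the pre-B library. The ring of Aff3, novel_circ_000270 (820 nt), had 7, 20, 6 and 14 reads. It was 2.28-fold higher in the pre-B than in the pro-B library (0.925 to 6.37) and 3.4-fold lower in the immature B than in the pre-B library (1.32 to 10.3). The ring of Aff1, novel_circ_000957 (979 nt), had 4, 18, 10 and 2 reads, and was 3.59-fold higher in the pre-B than in the pro-B library (1.18 to 14.6) and 1.83-fold lower in the immature B library (0.802 to 4.45). For each ring only 1 of the intervals around the pre-B library leaves out 1, and these differences had adjusted P of 0.148 for Aff3 and 0.282 for Aff1 by edgeR.

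The other 3 hosts act in protein modification, signalling and transport. Mettl9, a histidine methyltransferase, gave novel_circ_000206 (586 nt) with 17, 10, 10 and 4 reads. Rasa2, a GTPase-activating protein of Ras, gave novel_circ_000745 (317 nt) with 6, 6, 10 and 14 reads. These rings ran in opposite directions from pro-B to mature B, but no interval between adjacent libraries left out 1 for either. Fam160b1, whose protein belongs to a vesicle transport complex, gave novel_circ_000530 (491 nt) with 18, 8, 4 and 2 reads. Its level was 2.82-fold lower in the pre-B than in the pro-B library (1.17 to 7.5), while the intervals of the later steps, 2.04-fold (0.546 to 9.24) and 1.75-fold (0.251 to 19.3) lower, include 1.

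**Figure D2:**
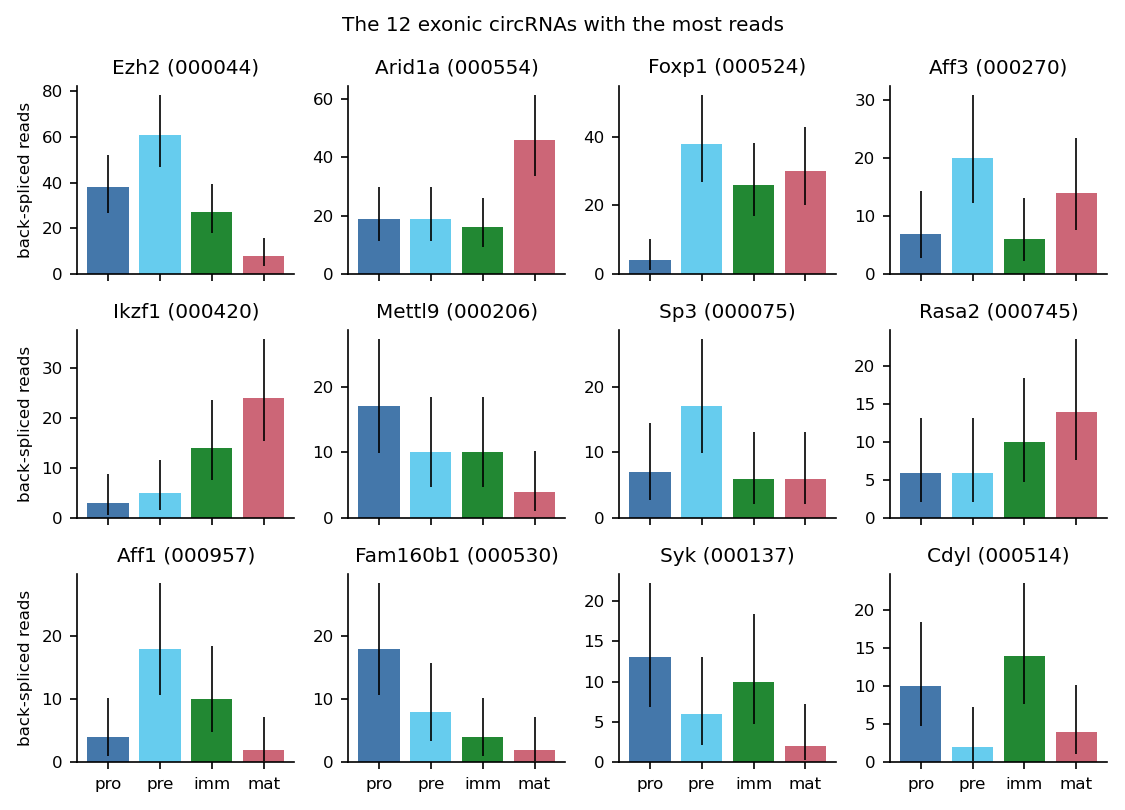
Back-spliced reads (vertical axis, each panel on its own scale from 0) of the 12 exonic circRNAs with the most reads in each of the 4 libraries, ordered from pro-B to mature B, with exact 95% Poisson intervals. Ezh2 is highest in the pre-B library, Arid1a and Ikzf1 in the mature B library.

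Some rings were among the first 5 of 1 library, ties included, without being among the first 10 overall. Rnf169, a ubiquitin ligase of DNA breaks, gave novel_circ_000992 with 16, 0, 0 and 8 reads. Pou2af1, the B-cell coactivator of octamer-binding factors, gave novel_circ_000664 (440 nt) with 0, 4, 20 and 4 reads. Its peak in the immature B library was 4.91-fold above the pre-B library (1.64 to 19.8) and 4.37-fold above the mature B library (1.46 to 17.6). Malat1, a nuclear noncoding RNA, gave novel_circ_000520 with 5, 2, 16 and 2 reads, also highest in the immature B library. In the mature B library 6 rings tied at 14 reads behind Arid1a, Foxp1 and Ikzf1, namely those of Aff3 and Rasa2, described above, and of Tut4, Itsn2, Fbxw4 and Tlk1. Tut4, a uridylyltransferase of RNA ends, gave novel_circ_000061 with 5, 1, 7 and 14 reads, and Itsn2, a scaffold of endocytosis, gave novel_circ_000356 with 1, 6, 2 and 14. Fbxw4, an F-box protein, gave novel_circ_000891 with 0, 0, 2 and 14.

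Hosts were counted in lists of B-cell and chromatin genes, which were chosen with earlier results of these data known, so that the shares depend in part on that choice. Of the 31 B-lineage transcription factors listed, 6 were hosts (19.4%), as were 13 of 45 genes of B-cell receptor signalling (28.9%) and 17 of 79 chromatin regulators (21.5%). Of 45 genes known as hosts of widely studied circRNAs, 11 were hosts (24.4%). Of all 22298 genes with mRNA values, 317 were hosts (1.42%), but the listed genes had more counts than most. Among genes with 50 or more counts over the 4 libraries 294 of 6942 were hosts (4.24%), and with 200 or more 207 of 2677 (7.73%), cut-offs chosen after the values were seen. No test of these shares was run, and the genes were not matched for length.

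The 8 rings of B-lineage transcription factors had 16, 61, 66 and 85 reads together. Besides the rings of Foxp1 and Ikzf1, they came from Cbfb, the partner of RUNX proteins, with 2, from Pax5, the factor of B-cell identity, from Ikzf3 (Aiolos) and from Spib, an ETS factor. The Pax5 ring novel_circ_000203 had 0, 1, 7 and 8 reads, and Pax5 host counts were 1030.1, 203, 278 and 1662.9. The Ikzf3 ring had 3 reads in the immature B library and the Spib ring 2 in the pre-B library, with 0 elsewhere. Most of the list's reads were those of Foxp1, whose 2 rings had 10, 46, 30 and 40 reads together, and of Ikzf1.

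The 15 rings of B-cell receptor genes had 28, 36, 26 and 20 reads together, and 6 of them were in 2 or more libraries. Syk, the kinase that starts signalling from the receptor, gave the one with the most reads, novel_circ_000137 (618 nt), with 13, 6, 10 and 2. A longer Syk ring, novel_circ_000028 (2319 nt), had 4, 1, 0 and 0 reads. The other 13 rings had between 3 and 10 reads over the 4 libraries. Among their hosts were Nfatc3, a transcription factor of calcium signalling, Nfkb1 and Rel, of the NF-kappaB family, and Cd79a, a signalling chain of the receptor.

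Chromatin regulators gave 23 rings with 100, 148, 94 and 105 reads, of which 14 were in 2 or more libraries. The Ezh2 ring made up 38, 61, 27 and 8 of these. Beside those already described, the ring of Kmt2a, a methyltransferase of histone H3, with 4, 2, 9 and 2 reads, and that of Ep400, a remodeller of the TIP60 complex, with 4, 1, 2 and 2, were in all libraries, as was 1 of the rings of Arid1b. Setd2, which methylates histone H3 in transcribed genes, gave a ring with 0, 10, 0 and 2 reads. The 13 rings of widely studied hosts had 28, 45, 37 and 34 reads, and their hosts included Cdyl, Strn3, Tlk1, Hipk3, Ankib1, Rere and Fbxw7. That of Hipk3, a kinase whose ring has been described in many tissues, had 0, 8, 4 and 4 reads.

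Adjacent libraries were compared with edgeR's exact test on all 1005 circRNAs, and a circRNA was called at P under 0.05 with a log2 fold change of at least 1 in size. From pro-B to pre-B, 37 members were called (10.1%, against 9.85% of all circRNAs), 13 higher (3.55%, against 3.48%) and 24 lower (6.56%, against 6.37%). From pre-B to immature B, 68 were called (18.6%, against 14.5%), 36 higher (9.84%, against 7.06%) and 32 lower (8.74%, against 7.46%). From immature B to mature B, 61 were called (16.7%, against 13.2%), 26 higher (7.1%, against 6.27%) and 35 lower (9.56%, against 6.97%). The first transition lay near the background, and the later ones a few points above it. From pro-B to pre-B, 6 reads against 0 were called lower (as for Spc24), but 0 against 6 were not called higher (as for Hnrnpab). In the later transitions 6 reads against 0 were called in either direction. The split between higher and lower calls in the first transition, and its smaller total, thus depend in part on this cut-off. With counts divided by 2 and rounded up, 3, 6 and 7 members were called (0.82%, 1.64% and 1.91%, against 0.299%, 0.896% and 0.995% of all circRNAs). The calls of Aff3, Aff1, Sp3, Cdyl, Fam160b1 and Lnpk were not among them. With a dispersion of 0.16, 34, 30 and 25 were called (9.29%, 8.2% and 6.83%, against 9.05%, 6.77% and 5.67%). Among circRNAs with 10 or more reads, 21, 35 and 27 of 93 members were called (22.6%, 37.6% and 29%), no more than the 26.8%, 40.7% and 30.1% of all 123 such circRNAs.

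Most calls were between some reads and none. A library at 0 was part of 31, 58 and 52 of the calls, and 25 of the 166 calls had reads in both libraries. After adjustment over all circRNAs, 4 calls were under 0.05. There were 2 from pro-B to pre-B and 2 from immature B to mature B (each 0.546%, against 0.199% of all circRNAs). From pre-B to immature B there were 0, among members as among all circRNAs. The Foxp1 ring was higher in the pre-B library (edgeR adjusted P 0.00142) and the Rnf169 ring lower (0.00772), and the rings of Arid1a (0.0115) and Tlk1 (0.0308) were higher in the mature B library.

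The directions hold relative to the total of back-spliced reads. With DESeq2's size factors every log2 change from pro-B to pre-B moved by 0.33, and 30 members were called higher and 23 lower (14.5%, against 13.6% of all circRNAs). With the totals of mRNA counts in place of back-spliced reads the log2 shifts were 2.18, 0.13 and -2.12. On that scale 102 members were called higher and 1 lower from pro-B to pre-B (28.1%, against 24% of all circRNAs), and 1 higher and 102 lower from immature B to mature B (28.1%, against 24.4%).

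The members with the smallest P in each direction included several not yet described. Lnpk, which shapes the endoplasmic reticulum, gave novel_circ_000340 (319 nt) with 1, 14, 1 and 0 reads. It was 11.2-fold higher in the pre-B than in the pro-B library (1.7 to 472) and 14.3-fold lower in the immature B than in the pre-B library (2.17 to 603). The Rnf169 ring, with its 16, 0, 0 and 8 reads, was 6.69-fold lower in the pre-B than in the pro-B library when 0 is read as 3 counts, and at least 4.84-fold by the exact conditional interval, which also takes in the error of the 16 reads. The ring of Map3k3, a kinase of the MAP kinase cascade, novel_circ_000636, had 12, 0, 0 and 0 reads and was 5.02-fold lower on the same reading of 0, and at least 3.49-fold by the interval. Lnpk and Map3k3 were thus each high in 1 library and at or near 0 elsewhere.

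Tbc1d1, a GTPase-activating protein of Rab proteins, gave novel_circ_000078 with 0, 0, 14 and 0 reads, all in the immature B library. With 0 read as 3 counts it was 4.58-fold higher there than in the pre-B library and 4.08-fold lower in the mature B library, and by the exact conditional intervals at least 3.26-fold and 2.9-fold. Strbp, an RNA-binding protein, gave novel_circ_000023 with 0, 0, 12 and 3 reads, 3.93-fold higher in the immature B than in the pre-B library on that reading and at least 2.73-fold by the interval. The ring of Susd1, a membrane protein, novel_circ_000509, had 4, 1, 13 and 0 reads and was 3.79-fold lower in the mature B than in the immature B library, and at least 2.66-fold by the interval. In the other direction, the ring of Tlk1, a kinase of chromatin assembly, novel_circ_000741 (191 nt), had 2, 2, 0 and 14 reads and was 5.34-fold higher in the mature B than in the immature B library, and at least 3.79-fold by the interval. These rings thus had most of their reads in 1 library.

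The spliced length of exonic circRNAs had a median of 547 nt (quartiles 330 and 1032), with a range of 82 to 6906. The median distance between their junction ends was 3130.5 bases, against 1533.5 for antisense and 1118 for intronic circRNAs, whose listed length equals that distance, and 5801.5 for exon-intron ones. Exonic rings thus spanned more of the genome than antisense and intronic ones, while their exons added up to less. For rings of annotated exons the spliced length is the sum of their exons, with a median of 567 nt, and the median distance between their junction ends in the genome was 5846 bases. That distance was 8.22 times the spliced length at the median and over 10 times in 118 rings. Single-exon rings had a median of 509.5 nt, and in 98 of 98 the distance equalled the length.

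**Figure D3:**
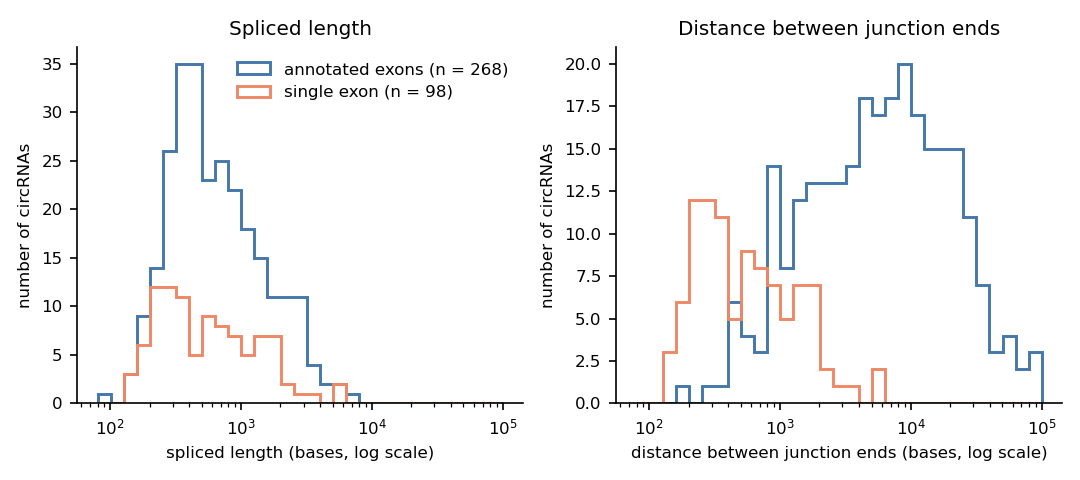
Number of exonic circRNAs (vertical axis) by spliced length and by distance between the junction ends (bases, log scale) for rings of annotated exons (268) and of a single exon (98). The length distributions overlap, while the distances of rings of annotated exons reach further.

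Across members, length and reads were hardly related. Spearman's rho between length and reads across the 366 members, which share the libraries, was -0.0647. Weighted by reads, the median length was 618, 619, 557 and 568 nt in the 4 libraries. Members in 1 library had a median of 591 nt, those in 2 or more 477 nt and those in all 4 711 nt, so the order was not monotonic. With length bins drawn after the values were seen, 14 of 22 members up to 200 nt were in 2 or more libraries (63.6%), and 15 of 55 members over 1600 nt (27.3%). Members up to 200 nt held 4.41% (3.1% to 6.22%), 8.97% (7.29% to 11%), 6.03% (4.66% to 7.77%) and 8.37% (6.62% to 10.5%) of the exonic reads of the libraries. Members over 1600 nt held 9.84% (7.82% to 12.3%), 14.6% (12.4% to 17%), 7.79% (6.22% to 9.71%) and 9.52% (7.65% to 11.8%). The pre-B library thus had the highest share at both ends of the length range, and its intervals did not overlap those of the pro-B library for the shortest and of the other 3 libraries for the longest rings. No test of these shares was run. The length was divisible by 3 in 140 members (38.3%).

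The shortest rings came from Ube2g2, a ubiquitin-conjugating enzyme (novel_circ_000453, 82 nt, with 0, 2, 0 and 7 reads), Birc2, an inhibitor of apoptosis (novel_circ_000767, 128 nt, with 0, 4, 3 and 1) and Tmem163, a zinc transporter (novel_circ_000790, 136 nt, with 2, 2, 5 and 0). The longest was that of Mga, a MAX partner (novel_circ_000133, 6906 nt), with 0, 0, 0 and 2 reads. It was followed by a pair from Tcf20, a transcriptional coregulator, novel_circ_000072 (5866 nt, with 2, 10, 0 and 4 reads) and novel_circ_000690 (5772 nt, with 10, 0, 9 and 4). The rings of Tcf20 alternated, each with 10 reads in a library in which the other had 2 or none.

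Rings sat in long genes. Acceptors lay at a median of 44.8% of the gene's length from its 5′ end (quartiles 27.0% and 68.4%). The host genes had a median length of 65474.5 bases, against 22620 for 9646 genes whose FPKM reached 1 in any library, and a ring spanned a median of 6.51% of its gene. Chromosome 2 held the most members (32) and chromosome 6 the most reads (411), of which the Ezh2 ring gave 134.

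The 366 members came from 323 host genes. Of these, 289 had 1 exonic circRNA and 34 (10.5%) had several, of which 29 had 2, 4 had 3 and 1 had 7. The 34 genes gave 77 circRNAs with 1055 reads (32.1% of the exonic reads). In the other classes 7.8% of antisense, 11.3% of intronic and 3.06% of exon-intron host genes had several. A host with several rings was therefore about as frequent among exonic as among intronic circRNAs.

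Rings of 1 gene often shared an end. In 17 of the 34 genes at least 1 pair shared a junction end, and in 24 the rings overlapped. Of 23 pairs with a shared end, 17 shared the acceptor and 6 the donor. In 3 pairs, of Ezh2, Cbfb and Crebrf, the other ends lay under 50 bases apart, a limit chosen after the values were seen. In 52 genes a circRNA of another class was also listed, in 35 of them an antisense one.

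The balance between rings that share an end could be followed where reads sufficed. The second Ezh2 ring, novel_circ_000558 (226 nt), had 1, 12, 6 and 0 reads. It made up 2.56% (0.454% to 13.2%), 16.4% (9.66% to 26.6%) and 18.2% (8.61% to 34.4%) of the reads of the pair in the first 3 libraries, and 0 of 8 in the mature B library, which allows up to 32.4% by the Wilson interval. These intervals overlap. For Foxp1 the longer ring, described above, made up 40% (16.8% to 68.7%), 82.6% (69.3% to 90.9%), 86.7% (70.3% to 94.7%) and 75% (59.8% to 85.8%) of the pair, whose shorter ring novel_circ_000355 (1053 nt) had 6, 8, 4 and 10 reads. The longer Foxp1 ring held the smaller part in the pro-B library alone, where the interval did not overlap those of the pre-B and immature B libraries. The longer Cbfb ring (361 nt) had 3 of 3, 3 of 7, 8 of 12 and 7 of 13 reads, against 330 nt for the shorter one.

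Genes with 3 or more exonic circRNAs were Malat1, Crebrf, Arid1b, Strbp and Man2a1. Malat1 gave 7, all annotated as one exon, with 5, 10, 28 and 14 reads together. It had 4669.3, 450.0, 966.0 and 6146.3 counts in the lncRNA table. Some of its rings overlapped but none shared an end, so they need not be whole exons. Crebrf, a regulator of the unfolded protein response, gave 3 rings that share the donor, with 11, 9, 18 and 2 reads together. The ring with the most reads, novel_circ_000500, had 10, 8, 5 and 0, so the highest sum, in the immature B library, came from novel_circ_000584 (0, 0, 7 and 2) and novel_circ_000629 (1, 1, 6 and 0). Arid1b, a further BAF subunit, gave 3 rings with 7, 24, 4 and 2 reads, and 2 of them shared the acceptor. Strbp (2, 6, 18 and 3 reads) and Man2a1, a mannosidase of the Golgi (2, 4, 14 and 4 reads), each gave 3 rings with a common acceptor, and their sums were highest in the immature B library, as were those of Malat1 and Crebrf.

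Host genes were compared with the counts of the mRNA table, which StringTie estimated from the same libraries. Of the members, 354 from 317 host genes were matched. The other 12 came from 6 genes missing from that table, namely Malat1, 4933439C10Rik, Gm14812, 2610307P16Rik, Pvt1 and Dleu2. Host counts summed to 70851, 15024.6, 14202.5 and 71278, and the median host had 130.0, 19, 19 and 117 counts. The summed counts were low in the pre-B and immature B libraries, where back-spliced reads were not.

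Per 1000 host counts there were 9.47 (8.77 to 10.2), 59.0 (55.2 to 63.0), 62.2 (58.2 to 66.5) and 10.6 (9.82 to 11.3) exonic back-spliced reads. The ratio was 6.23-fold higher in the pre-B than in the pro-B library (5.63 to 6.89), 1.06-fold from pre-B to immature B (0.961 to 1.16) and 0.17-fold from immature B to mature B (0.154 to 0.187). The pre-B and immature B libraries thus stood apart from the pro-B and mature B ones, with an interval that includes 1 within the first pair. Host counts moved by factors of 0.212, 0.945 and 5.02, while the reads of the matched members moved by 1.32, 0.998 and 0.852. Without Ezh2 the fold changes were 6.05 (5.45 to 6.73), 1.11 (1 to 1.22) and 0.174 (0.158 to 0.193), so the difference between the pre-B and immature B libraries then lay at the edge of counting error.

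**Figure D4:**
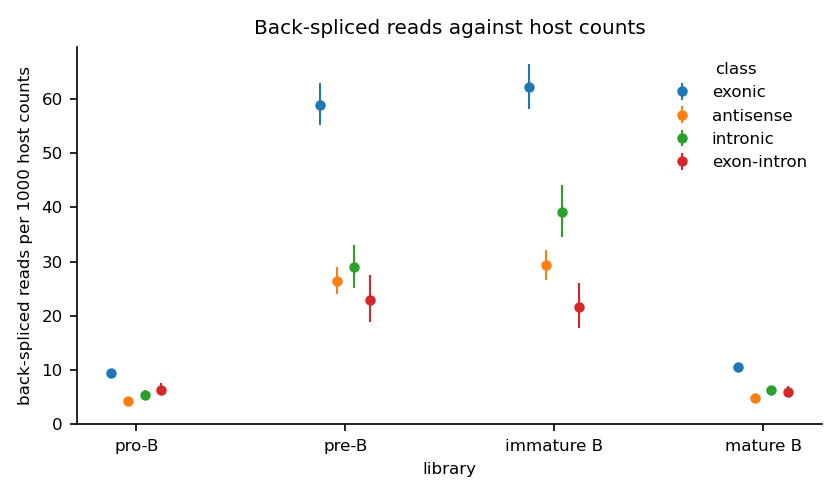
Back-spliced reads per 1000 counts of their host genes (vertical axis) in the 4 libraries for exonic, antisense, intronic and exon-intron circRNAs. Bars are exact 95% Poisson intervals of the reads, with the host counts taken as fixed. The ratio of exonic circRNAs is 59.0 and 62.2 in the pre-B and immature B libraries and 9.47 and 10.6 in the pro-B and mature B ones.

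The whole mRNA table moved with this ratio. Its counts summed to 867920.2, 240231, 223494.8 and 849349.8, changing by factors of 0.277, 0.93 and 3.8. Counts of the lncRNA table summed to 2795518.7, 3469757.3, 3227162.3 and 2765507.2, so that mRNA made up 23.7%, 6.48%, 6.48% and 23.5% of both tables. The part of this share in the ratio of reads to host counts was not tested. Against the mRNA total in place of host counts, the matched members had 0.773, 3.69, 3.96 and 0.887 reads per 1000 counts. The reads of all 366 members over the sum of both tables, a ratio chosen after the values were seen that involves no host gene, changed by factors of 1.33, 1.07 and 0.813. Against host FPKM the matched members changed by 4.44, 0.948 and 0.243. Other classes also moved in the same libraries, with 4.25, 26.4, 29.3 and 4.88 reads per 1000 host counts for antisense circRNAs. Intronic circRNAs had 5.42, 29, 39.1 and 6.21, and exon-intron ones 6.35, 22.9, 21.6 and 6.01. The exon-intron ratio moved less than the exonic one. It changed 3.61-fold from pro-B to pre-B (2.79 to 4.65) and 0.278-fold from immature B to mature B (0.215 to 0.361).

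Single members showed the same division of the libraries. Back-spliced reads outnumbered host counts for 2 of 139 members with reads in the pro-B library and for 4 of 144 in the mature B library, but for 19 of 164 and 24 of 169 in the libraries between. The host had 0 counts for 2, 10, 10 and 2 of these, and Fam160b1 had 0 in all 4 libraries. Across the 354 members, Spearman's rho between reads and host counts was 0.0274, 0.171, 0.104 and 0.132. A host with more counts thus had rings with hardly more reads, in sparse counts that limit any such relation.

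**Figure D5:**
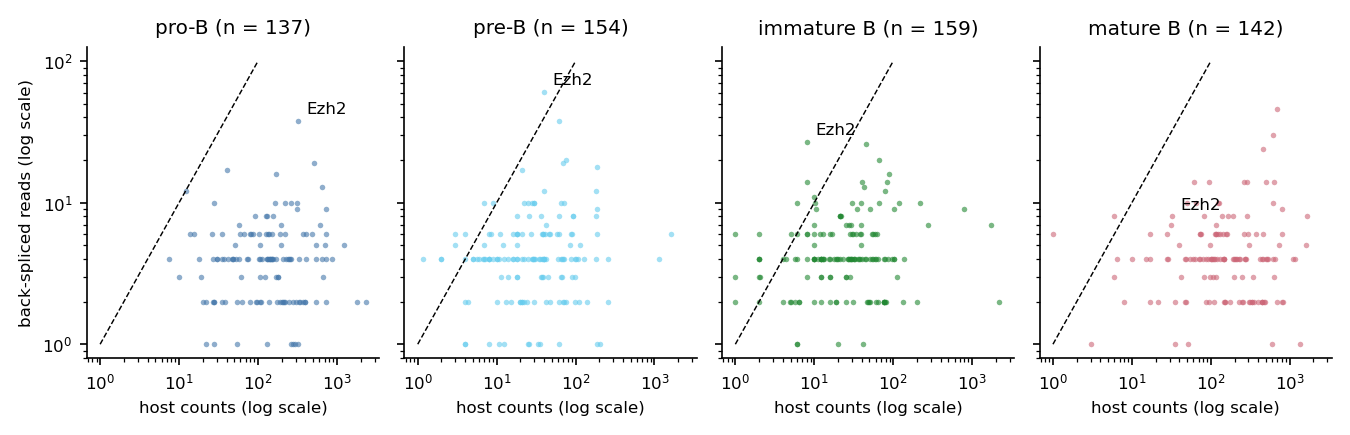
Back-spliced reads against counts of the host gene (both log scale) for members with reads and a host count above 0, in 1 panel per library, with Ezh2 named and a dashed line where both are equal. More points lie above the line in the pre-B and immature B libraries.

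Ezh2 had 323, 40, 8 and 32 counts in the mRNA table. Its main ring had 11.8 reads per 100 host counts (8.33 to 16.1) in the pro-B library and 152 (117 to 196) in the pre-B library. The values were 338 (222 to 491) in the immature B library and 25 (10.8 to 49.3) in the mature B library. These intervals take the host counts as fixed, so they are too narrow, most of all with 8 host counts. Scaled to the mRNA total of the library (CPM), the gene's level was 372, 167, 35.8 and 37.7, highest in the pro-B library. The ring's share was highest in the pre-B library, but its 1.28-fold difference from the pro-B library (0.84 to 1.97) was within counting error. For Foxp1, with 402, 61.2, 45.7 and 616 host counts, the ring novel_circ_000524 had 0.995, 62, 56.9 and 4.87 reads per 100. For Ikzf1, with 674, 115, 83 and 458 host counts, the values were 0.445, 4.34, 16.9 and 5.24. The pro-B library was lowest for both.

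By reads per host count, among hosts with 50 or more counts, the first 5 members were those of Mettl9, Cdyl, Ezh2, Rasa2 and Lnpk. Mettl9 had 84 host counts over the 4 libraries and its ring 48.8 reads per 100. For Cdyl the values were 89 and 33.7, for Ezh2 403 and 33.3, for Rasa2 135 and 26.7, and for Lnpk 77 and 20.8. Of these hosts only Ezh2 and Rasa2 exceeded 100 counts, so the ranking rests on few counts. It also pools libraries that differ in this ratio, and within them the order turned. In the pro-B library Mettl9 (42.5) and Cdyl (35.7) stood above Ezh2 (11.8). In the immature B library Ezh2 (338) stood above Cdyl (175) and Mettl9 (167), but these values rest on 8, 8 and 6 host counts.

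The hosts with the most counts had rings with few reads for their counts over the 4 libraries. Picking hosts by their counts favours low values of this ratio. Actb, cytoskeletal actin, gave novel_circ_000421 with 0, 6, 2 and 0 reads against 5941.9, 1603, 2203.9 and 5711.9 counts. Ighm, the heavy chain of IgM, gave novel_circ_000719 with 0, 0, 7 and 0 reads against 3276.1, 1716.8, 1746.8 and 3314.2. For both, the reads were fewer than 1 per 100 counts in each library. Ccnb1ip1, a ubiquitin ligase of meiosis, gave novel_circ_000431 with 5, 4, 9 and 1 reads against 1231, 1137, 782 and 1339 counts. Cyfip2, a subunit of the WAVE complex, gave novel_circ_000147 with 2, 0, 10 and 0 reads against 1785, 302, 216 and 791. With Pax5, whose ring was described above, these were the 5 hosts with the most counts.

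Changes of rings and of their hosts were compared in the 28 members found in every library whose host was in the mRNA table. The share of the ring and that of the host moved in the same direction for 12 of 26 members from pro-B to pre-B, 14 of 24 from pre-B to immature B and 16 of 25 from immature B to mature B. These transitions share libraries, and the counts are a description.

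Exonic circRNAs made up 38 of the 39 circRNAs that the table links to circBase, a catalogue of circRNAs. These 38 (10.4% of the members) held 447 reads (13.6%), and 68.4% of them were in 2 or more libraries, against 40.5% of the 328 members without a link. Of the 10 members with the most reads, 2 had a link. Even counts, 79.5% of those of members, were 88.6% for antisense, 88.6% for intronic and 90.2% for exon-intron circRNAs. By length they were 66% for members up to 200 nt, 75.1% from there to 400 nt, 84.7% to 800 nt, 81.2% to 1600 nt and 83.3% above. Even counts were thus fewest among the shortest rings.

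Factors that make or clear circRNAs were read from the mRNA table. The 28 found there, of 29 listed, summed to 6574.3, 3593.3, 4170.7 and 5386.0 CPM. The most abundant was Mbnl1, a splicing regulator, in the first 3 libraries and Ago2, a small RNA effector, in the mature B library, and 2, 4, 3 and 2 factors were at 0. The lowest sums were in the libraries with the highest ratio of reads to host counts, a relation that was not tested. Of the list, 3 genes were hosts, with 4 exonic rings that had 4, 0, 10 and 11 reads.

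The labels were checked against marker genes. The pro-B list summed to 2320.8, 179, 44.7 and 56.5 CPM, with Dntt, Il7r, Il7r and Spn the most abundant and 0, 3, 4 and 3 of 6 genes at 0. The pre-B list summed to 1278.1, 1066.5, 576 and 15.2 CPM, led by Rag1 and then Vpreb3, and 1 of 4 genes was at 0 in the immature B library. The immature B list had 4336.9, 7530.1, 9504.2 and 5087.3 CPM, with Ighm the most abundant and none at 0. For the mature B list the sums were 272, 191, 255 and 3576.0 CPM, with Ighd the most abundant in the immature B and mature B libraries and with 2, 2, 2 and 0 of 5 genes at 0. The list of all B cells had 1916.1, 2844, 4087.7 and 2980.8 CPM, led by Cd79b. Each list of a single stage had its highest sum in its own library except the pre-B list, which was highest in the pro-B library. That exception came from Rag1 (918, 372, 0 and 1.18 CPM). Of the other genes of the list, Rag2 (109, 316, 94 and 4.71) and Il2ra (68, 83.3, 26.8 and 2.35) were highest in the pre-B library. Vpreb3 (182, 295, 456 and 6.91) was highest in the immature B library. The immature B list followed Ighm, while Cd93 was highest in the pro-B library (429, 183, 94 and 56.5).

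Lists for other cells were read in the same way. Genes of T and NK cells had 178, 0, 0 and 5 counts, led by Gzma in the pro-B library, with 1, 6, 6 and 3 of 6 at 0. Those of myeloid cells summed to 936, 1049, 873 and 790.0 CPM, led by Lyz2 or S100a8, with 1 of 6 at 0 in each library. Those of erythroid cells had 246, 197, 59.1 and 125 CPM, led by Hbb-bs, with 0, 1, 3 and 1 of 4 at 0. The list of plasmacytoid dendritic cells had 634, 978, 1503.4 and 305 CPM, led by Bst2 and then by Ly6d, which B-cell precursors also make, with 0, 1, 0 and 1 of 3 at 0. In the pre-B library the myeloid sum was near that of the pre-B list, and in the immature B library the myeloid and plasmacytoid sums were above those of the pre-B and mature B lists. Plasma cell genes had 89.9, 142, 98.4 and 41.2 CPM, led by Jchain or Sdc1, with 0, 1, 0 and 0 of 3 at 0. Of all the marker genes, Ighm, Ighd and Cd79a were hosts of an exonic circRNA, and the part of other cells in the exonic reads was not tested.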

How the data were processed

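Back-spliced reads, mRNAs and lncRNAs were measured in 4 rRNA-depleted libraries, 1 per stage. The authors cleaned reads with fastp 0.18.0, removed rRNA with Bowtie2 2.2.8, mapped with HISAT2 and searched unmapped reads with find_circ, where a circRNA had to reach 2 unique back-spliced reads in some library. For circRNAs the deposited values are raw counts of reads across the junction, and the deposited RPM (rpm) equals the count over the library total times a constant. Both linear RNA tables give expected counts as deposited by the authors, estimated with StringTie 1.3.4 and not all whole, beside deposited FPKM values. The labels name mm9 and Bowtie 0.12.2.

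Library totals were 1370, 1719, 1751 and 1531 back-spliced reads. Adjacent libraries were compared with edgeR 4.0.16 in R 4.3.3 (exact test, dispersion 0.0001, column totals as library sizes, 0 RPM read as 0.001), tested on simulated data whose design was changed once after its first outcome. At the real depth it called few of the changed circRNAs, so changes can be missed at this depth. DESeq2 1.42.0 gave alternative size factors. The rest was computed in Python 3.11.15 (scipy 1.17.1, pandas 2.3.3, numpy 2.4.6) and drawn with matplotlib 3.10.9. Shares have Wilson intervals, counts exact Poisson intervals and fold changes exact conditional intervals, all at 95%. Reads per host count have the exact Poisson interval of the reads. The intervals of these values and of their fold changes take the host counts as fixed. Alternatives were other scalings, a dispersion of 0.16, counts divided by 2, filters of 10 reads or 10 host counts, FPKM and leaving out Ezh2.

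Members and gene lists were chosen with earlier results of these data known. Named are the 10 members with the most reads, the 5 with the most in each library, hosts with 3 or more, the 2 with the smallest P per direction and transition, the 3 longest and shortest, the 5 with the most reads per host count, the 5 hosts with the most counts, and members of the lists. The rings of Son, Gramd4 and 4933439C10Rik and the genes missing from the mRNA table or at 0 in it lie outside this rule and were chosen after their values were seen. The miRNA table was not used.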

Additional observations from a re-analysis of the deposited data

How the results depend on the processing

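The calls depended on the reads and on the scaling. From pro-B to pre-B, where 37 exonic circRNAs were called, 3 were called with counts divided by 2 and rounded up, 21 with at least 10 reads over the 4 libraries (fewer tested), 2 at an adjusted P under 0.05 and 103 (102 higher, 1 lower) with mRNA totals as library sizes. From pre-B to immature B (68), a dispersion of 0.16 gave 30, counts divided by 2 gave 6, at least 10 reads gave 35 and an adjusted P under 0.05 gave 0 with edgeR. From immature B to mature B (61), the same settings gave 25, 7, 27 and 2, and mRNA totals gave 103 (1 higher, 102 lower). TMM factors and DESeq2's size factors kept each total within 1.5 times, but from pro-B to pre-B DESeq2's moved the split from 13 higher and 24 lower to 30 and 23. Of all circRNAs, the alternatives called 3, 33, 2 and 241 from pro-B to pre-B, 68, 9, 50 and 0 from pre-B to immature B, and 57, 10, 37, 2 and 245 from immature B to mature B, in the order given. The fold changes of reads per host count (6.23, 1.06 and 0.17) became 4.44, 0.948 and 0.243 with host FPKM, so the middle one, whose interval includes 1, crossed 1. The reads of all 366 members over the sum of mRNA and lncRNA counts, a ratio without host genes chosen after seeing the data, changed by 1.33, 1.07 and 0.813. The cause was not tested. The difference between exonic and antisense shares was positive under its 4 alternatives (15.6 to 76.8 points). The value of 76.8 comes from the filter of 10 reads, which selects on the reads that the shares measure. Members in every library (29, then 23), members in 2 or more (159, then 151), hosts with several (34, then 26) and the median length (547, then 586 nt) moved less than their limits. No paired analysis was possible because each stage had 1 library of pooled cells. Few reads per circRNA limit single changes to large ones.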

Other observations

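The span of 3 exonic circRNAs holds a miRNA hairpin of RefSeq on the same strand, between the junction ends. They are novel_circ_000085 of R3hdm1 with Mir128-1 (0, 0, 4 and 2 reads), novel_circ_000157 of Gripap1 with Mir1198 (0, 0, 4 and 0) and novel_circ_000844 of Arid1a with Mir7227 (0, 2, 0 and 0). These were chosen after their values were seen. Their spliced lengths were 1005, 2724 and 831 nt and their spans 30182, 19864 and 25798 bases.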
